A study of Schizosaccharomyces pombe with 6 samples.

Results

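The DNA repair genes of Schizosaccharomyces pombe other than helicases were taken from the deposited gene table by annotation alone. Of its 5184 genes, 162 carried the Gene Ontology process term for DNA repair. The 23 that also carried the term for DNA duplex unwinding were left out, as were 3 genes removed by name. These were rhp6+ (the ubiquitin-conjugating enzyme for H2B), cnd2+ (a condensin subunit) and rad21+ (a cohesin subunit). The remaining 136 genes lay on chromosomes I (62 genes), II (46 genes) and III (28 genes), and no expression value was used to choose them.

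Cells repair DNA through several routes that act on different lesions. Homologous recombination resects a double-strand break and copies a sister chromatid, whereas end joining ligates the ends directly. Nucleotide excision repair cuts out a bulky or UV-induced lesion, base excision repair removes a damaged base, and mismatch repair corrects replication errors. Fission yeast has an additional UV excision route that uses the flap endonuclease Rad2. Translesion polymerases copy past damage, and the checkpoint kinases Rad3 and Tel1 signal that damage is present.

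Transcripts were compared between 3 WT and 3 htb1-K119R libraries, which the study describes as independent biological repeats. htb1+ encodes the only histone H2B of this yeast, and replacement of its lysine by arginine removes the residue to which ubiquitin is attached. The comparison asked how gene expression differs when H2B cannot be monoubiquitinated. The WT strain was h+ ade6-M216 leu1-32 ura4-D18, and the mutant was h- ura4-D18 htb1-K119R::kanMX6. Mating type, the ade6 and leu1 alleles and the kanMX6 marker therefore differed along with the histone, and their parts cannot be told apart from it.

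Between 15987167 and 20701391 reads were counted per library, and 3 counts corresponded to 0.124 to 0.228 CPM, the counts of a gene relative to the TMM-scaled library total. WT replicate 3 stood apart from the other WT libraries. Its counts differed from those of WT replicates 1 and 2 by a chi-square of 83.2 and 62.1 per gene, against 8.6 between replicates 1 and 2 and 13.4 to 31.9 between htb1-K119R libraries. No pair of libraries agreed within sampling noise. The htb1+ transcript itself had 24421, 24905 and 32936 counts in WT against 28635, 25253 and 28199 in htb1-K119R, and since the mutation changes a codon this level does not check the genotype. ura4, which the ura4-D18 allele lacks, was listed at 0 in all 6 libraries.

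The 250 bases before the annotated start of 3 of these genes are printed from the RefSeq genome ASM294v3, each 5′ to 3′ on the strand of its gene. alp5+ is shown because it was the only gene called higher that held the MCB box ACGCGT, the motif bound by the cell-cycle transcription factor MBF, in this window. rhp42+ and rad2+ are shown because they had the highest fold changes of the set, and their windows held no such box. Capitals mark ACGCGT, which reads the same on both strands. The windows lie at II:2012749-2012998 (plus strand, alp5+), III:451545-451794 (plus strand, rhp42+) and I:5391423-5391672 (minus strand, rad2+).
alp5: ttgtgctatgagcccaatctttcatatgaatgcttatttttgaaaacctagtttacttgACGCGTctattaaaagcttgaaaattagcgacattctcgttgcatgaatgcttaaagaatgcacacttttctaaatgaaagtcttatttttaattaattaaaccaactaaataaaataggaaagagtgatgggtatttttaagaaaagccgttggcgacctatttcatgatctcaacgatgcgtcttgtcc
rhp42: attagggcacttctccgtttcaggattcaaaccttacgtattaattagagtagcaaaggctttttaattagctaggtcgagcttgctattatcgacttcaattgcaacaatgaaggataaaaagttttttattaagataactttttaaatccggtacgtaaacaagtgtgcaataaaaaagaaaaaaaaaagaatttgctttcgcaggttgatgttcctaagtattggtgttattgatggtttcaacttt
rad2: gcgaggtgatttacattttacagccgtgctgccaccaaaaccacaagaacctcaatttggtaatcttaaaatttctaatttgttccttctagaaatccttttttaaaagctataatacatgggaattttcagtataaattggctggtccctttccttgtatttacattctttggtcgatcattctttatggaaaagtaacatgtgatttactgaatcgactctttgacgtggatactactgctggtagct

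The box was present in the windows of 135 of 5106 genes (2.64%) and of 6 of the 136 repair genes (4.41%). The nearest box began 191 bases before the start of alp5+, the 1 of the 28 genes called higher that held a box. ssb1+ with 3 boxes, pds5+ with 2 and hta1+ with 1 were not called, and rti1+ with 2 was not tested.

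Repair transcripts changed in both directions, at a rate near that of the whole table. Of the 134 repair genes that passed the filter on low counts, 28 were higher in htb1-K119R (20.9%; 18.6% of all 4969 genes tested) and 22 were lower (16.4%; 19.3% of all genes) at a false discovery rate below 0.05. Together they made 50 calls (37.3%; 37.9% of all genes). A change of more than 2-fold was reached by 9 genes that rose (6.72%; 4.71% of all genes) and by 2 that fell (1.49%; 3.64% of all genes), in all 11 genes (8.21%; 8.35% of all genes). The 9 were rhp42+, rad2+, exo1+, eso1+, rad13+, smc5+, rad52+, adl1+ and alp5+, and the 2 were rhp7+ and SPAC1F12.06c. The median log2 fold change was 0.06 over the repair genes and -0.01 over all genes. The 3 libraries of each genotype did not overlap for 70 repair genes (52.2%; 48.8% of all genes). Every call came from the quasi-likelihood test of edgeR, with p-values adjusted by the Benjamini-Hochberg method over all genes tested, and 3 libraries against 3 cannot go below a two-sided exact p of 0.1 for any gene taken alone.

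The counts depended on scaling and on single libraries. With library totals in place of TMM factors, 19 repair genes were higher and 5 lower, so that the share of calls that were higher moved from 56.0% to 79.2%, and the median of all genes shifted to 0.15 and that of the repair genes to 0.21. Under that scaling 16.4% of all genes were called higher and 8.11% lower. Past 2-fold it gave 13 repair genes higher and 1 lower, against 298 and 108 of all 4969 genes (2.17% for the lower calls). The counts fell to 17 higher and 12 lower without WT replicate 2, where 11.8% and 12.7% of all genes were called. They fell to 15 and 11 without K119R replicate 1 (577 and 598 of 4988 genes) and to 18 and 12 without K119R replicate 3 (11.8% and 11.4% of all genes). Without WT replicate 3 they rose to 34 and 27 (26.4% and 27.6% of all genes), so that the calls over the whole table fell and rose with the same libraries. More than 2-fold lower were 5 genes without WT replicate 1 or K119R replicate 3 and 4 without WT replicate 2 or K119R replicate 1, where 3.76%, 3.53%, 3.31% and 3.47% of all genes were. Of the 50 calls, 16 passed in every one of the 14 alternative analyses. They were the rises of rhp42+, rad2+, exo1+, eso1+, rad13+, smc5+, rad52+, adl1+, alp5+, eme1+, ctp1+, hhp2+ and rfp1+ and the falls of rhp7+, SPAC1F12.06c and SPAC23H3.15c.

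**Figure D1:**
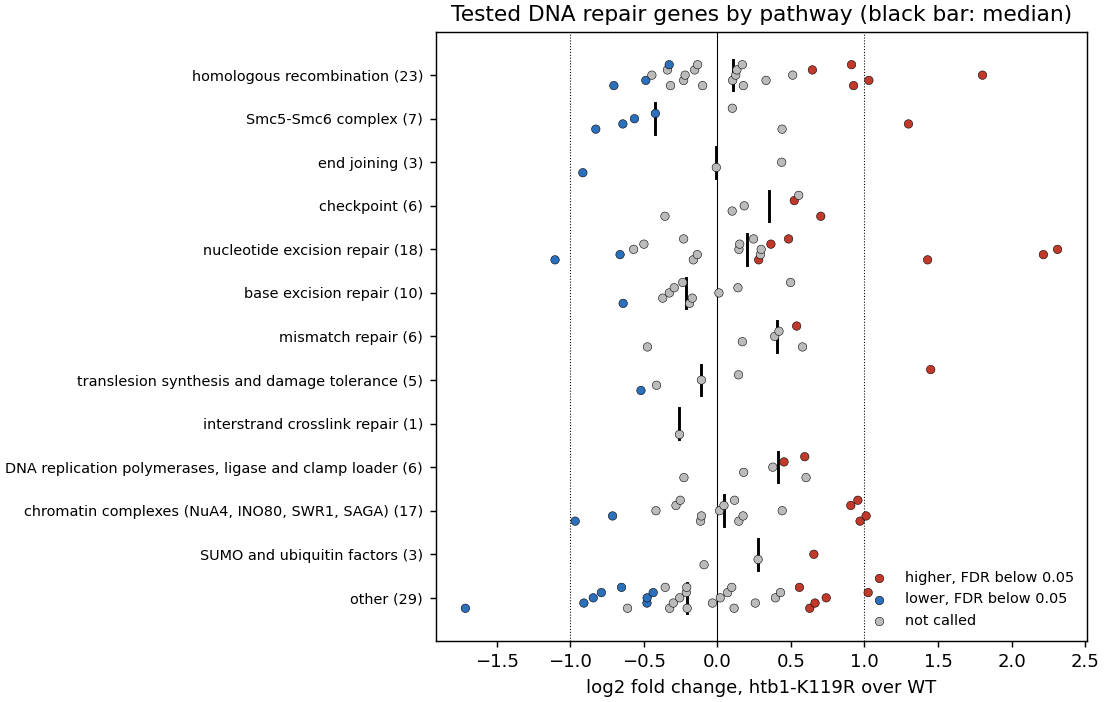
Log2 fold change (htb1-K119R over WT, horizontal axis) of each tested repair gene, 1 point a gene, by pathway, with the number tested in brackets. Red and blue points passed a false discovery rate of 0.05, black bars are medians and dotted lines mark 2-fold. The nucleotide excision repair row holds the highest points, rhp42 at 2.31 and rad2, of the additional UV excision route, at 2.22. The Smc5-Smc6 complex is split between 1 red and 4 blue points.

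The nucleotide excision repair list gave the highest fold changes of the set. It also holds rad2+, which acts in the additional UV excision route. Of the 18 genes listed 6 rose and 2 fell (18.6% and 19.3% of all genes did), with a median log2 fold change of 0.20. rhp42+, which encodes a homolog of the lesion-recognition factor Rad4/XPC, had 3.95, 3.09 and 3.34 CPM in WT against 16.5, 18.7 and 16.3 CPM in htb1-K119R. The lowest mutant library was well above the highest WT library, and the fold was 4.97 (log2 2.31 ± 0.16 SE, n = 3 per group, adjusted p = 4.62e-06). Its paralog rhp41+ had 3.95, 3.37 and 6.11 CPM in WT against 5.12, 5.16 and 4.96 CPM in the mutant, the groups overlapped, and it was not called (log2 0.15 ± 0.23 SE, adjusted p = 0.636).

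rad2+, the FEN1 flap endonuclease that processes Okazaki fragments and acts in UV excision, rose from 5.62, 6.17 and 6.32 CPM in WT to 24.7, 29 and 30.8 CPM in htb1-K119R. The groups were far apart and the fold was 4.65 (log2 2.22 ± 0.14 SE, adjusted p = 2.95e-06). rad13+, the XPG nuclease that cuts 3′ of a lesion, had 3.26, 3.95 and 2.31 CPM in WT against 8.04, 8.24 and 8.88 CPM in the mutant (2.69-fold, log2 1.43 ± 0.21 SE, adjusted p = 0.000576). Its counterpart rad16+, the XPF nuclease that cuts 5′, was called at a fold of 1.4 (log2 0.48 ± 0.16 SE, adjusted p = 0.0351), but the call was lost in 5 of 6 fits that left out a library, all except the fit without WT replicate 3. Its partner swi10+ (ERCC1) was not called (log2 -0.23 ± 0.15 SE).

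rhp7+, which encodes the global-genome repair factor Rad7, moved the other way. It had 24.1, 26.7 and 23.6 CPM in WT against 13, 11.4 and 10.1 CPM in htb1-K119R, a 2.15-fold fall without overlap (log2 -1.10 ± 0.14 SE, adjusted p = 0.000163). rhp7+ overlaps rhp16+ on the opposite strand over 1031 of its 2169 bases, and rhp16+, the ATPase that works with Rhp7, was not called (log2 0.30, adjusted p = 0.135). tfb5+, the smallest TFIIH subunit, fell (log2 -0.66 ± 0.18 SE, adjusted p = 0.0152), with the call lost without K119R replicate 1 (adjusted p = 0.0774) and without K119R replicate 3 (adjusted p = 0.0741). Among the other TFIIH genes tfb2+ rose by 1.29-fold (adjusted p = 0.0222, lost in 4 of 6 such fits), and tfb4+, ssl1+, pmh1+ and rad15+ were not called, with log2 fold changes of -0.14, 0.29, -0.16 and 0.25. rhp23+, the Rad23 partner of XPC, had the highest level per length of the list, 94 FPKM in WT, and rose by only 1.21-fold (adjusted p = 0.0475, lost in 4 of 6 such fits).

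**Figure D2:**
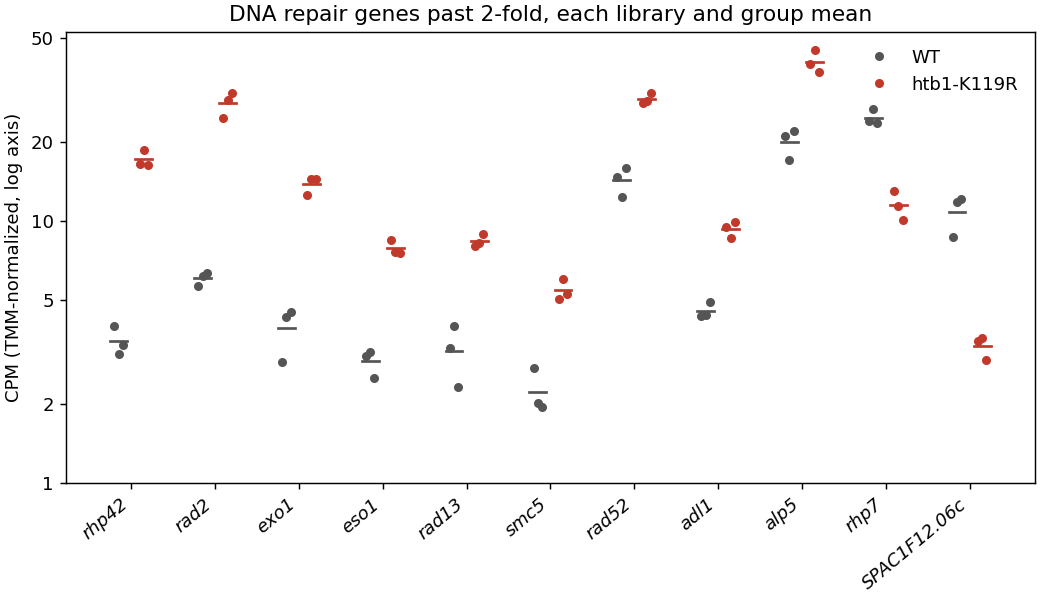
TMM-normalized CPM (vertical log axis) of the 11 repair genes past 2-fold, 1 point a library and a line at each group mean, WT in gray and htb1-K119R in red. For each of the 11 genes the 3 libraries of 1 genotype lie wholly above those of the other, and rhp7 and SPAC1F12.06c are the pair in which WT is on top.

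Homologous recombination genes changed in both directions. Of 23 tested 5 rose and 3 fell (18.6% and 19.3% of all genes did) and 15 were not called, with a median log2 fold change of 0.10. exo1+, a 5′ exonuclease that lengthens the resected strand, had 2.88, 4.31 and 4.5 CPM in WT against 12.5, 14.4 and 14.5 CPM in htb1-K119R (3.49-fold, log2 1.80 ± 0.19 SE, adjusted p = 6.08e-05). ctp1+, the CtIP homolog that starts resection, had 7.21, 7.83 and 7.64 CPM in WT against 14.4, 12.4 and 15.9 CPM in the mutant (1.88-fold, log2 0.91 ± 0.15 SE, adjusted p = 0.000937). Neither gene's groups overlapped. mre11+, whose nuclease Ctp1 activates, had 35.6, 32.7 and 27.7 CPM in WT against 35.7, 38.9 and 33.2 CPM in the mutant and was not called (log2 0.17 ± 0.12 SE, adjusted p = 0.299).

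rad52+, which mediates strand exchange and anneals single-stranded DNA, had 14.7, 12.3 and 15.9 CPM in WT against 28.3, 28.7 and 30.7 CPM in htb1-K119R (2.04-fold, log2 1.03 ± 0.13 SE, adjusted p = 0.000181). Every WT library was below every mutant library. The recombination mediators rad55+, rad57+, rlp1+, sws1+, swi5+ and sfr1+ were not called, at log2 fold changes of 0.13, -0.15, 0.13, -0.22, -0.44 and 0.51, nor were the replication protein A genes ssb1+, ssb2+ and ssb3+ at -0.13, 0.10 and -0.10. rad54+, a DNA translocase of the recombination pathway, rose by 1.56-fold at the edge of the threshold (adjusted p = 0.0437) and was called in 1 of 6 fits with a library left out, that without WT replicate 3.

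Resolvases of joint molecules also differed among themselves. eme1+, the partner of the Mus81 nuclease, had 2.73, 2.51 and 3.3 CPM in WT against 5.92, 6.09 and 4.44 CPM in htb1-K119R, without overlap (1.9-fold, log2 0.93 ± 0.22 SE, adjusted p = 0.00737). It shares 1119 of its 3580 bases with gde1+ on the opposite strand (log2 -0.42, adjusted p = 0.0956). mus81+ itself was not called (log2 0.33 ± 0.20 SE, adjusted p = 0.213). slx4+, the scaffold of the Slx1 nuclease, had 10.3, 7.83 and 6.44 CPM in WT against 4.65, 6.15 and 4.18 CPM in the mutant, a 1.63-fold fall (adjusted p = 0.0308) that was lost in 4 of 6 fits with a library left out and kept without WT replicate 3 and without K119R replicate 2. slx1+ was not called (log2 -0.23). mhf2+, a histone-fold partner of the FANCM ortholog, fell by 1.25-fold (adjusted p = 0.0278, lost in 4 of 6 such fits) and was at 0.07 with offsets for GC content and exon length, and mhf1+, rad60+ and tdp1+ were not called, at -0.32, -0.34 and 0.18. rti1+, a Rad52 paralog, had at most 0.62 CPM in any library and did not pass the filter.

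The Smc5-Smc6 complex, a cohesin-like ring with SUMO and ubiquitin ligase subunits that acts at collapsed forks, was split by subunit. smc5+, which encodes an ATPase arm of the ring, rose, and 4 of the 6 tested non-SMC subunits fell (19.3% of all genes did). The gene of the other arm, smc6+, is outside the set. It was not called (log2 0.42, adjusted p = 0.0964), although its groups did not overlap, and was at 0.10 with offsets for GC content and exon length. The list had a median log2 fold change of -0.42 over 7 genes. smc5+ had 2.73, 2.01 and 1.94 CPM in WT against 5.03, 5.98 and 5.27 CPM in htb1-K119R (2.46-fold, log2 1.30 ± 0.22 SE, adjusted p = 0.00115). nse3+, a MAGE-family subunit, had 10, 12.9 and 12.8 CPM in WT against 8.56, 6.53 and 7.8 CPM in the mutant (log2 -0.64 ± 0.17 SE, adjusted p = 0.0126, and 0.0527 without WT replicate 2). nse1+, the ubiquitin ligase, had 153, 168 and 145 CPM in WT and 104 to 126 CPM in the mutant (log2 -0.42 ± 0.11 SE, adjusted p = 0.0134, lost without WT replicate 2 at 0.0769 and without K119R replicate 1 at 0.0826). The groups of smc5+, nse1+ and nse3+ did not overlap.

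nse1+ shares 842 of its 2037 bases with hsp10+ on the opposite strand, a chaperonin gene with 694 CPM in WT and 516 CPM in the mutant that itself fell (log2 -0.43, adjusted p = 0.0367). Its part in the nse1+ value was not tested. nse5+ and nse4+, the latter the kleisin of the ring, had log2 fold changes of -0.56 ± 0.19 SE and -0.83 ± 0.30 SE with adjusted p = 0.0409 and 0.0498. The call of nse5+ was lost in each of the 6 fits that left out a library (adjusted p from 0.0516 to 0.133), and that of nse4+ in all except the fit without K119R replicate 3. nse2+, the SUMO ligase, and nse6+ were not called, at 0.10 ± 0.14 SE and 0.44 ± 0.30 SE. All 4 falls lost their calls when library totals were used, with log2 values of -0.25 for nse1+, -0.49 for nse3+, -0.70 for nse4+ and -0.41 for nse5+.

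Of the 3 end-joining genes in the set only pol4+, a gap-filling polymerase of the X family, was called (37.9% of all genes were). The Ku genes pku70+ and pku80+ are outside the set and were not called (log2 -0.235 and 0.562, adjusted p = 0.203 and 0.0961). pol4+ had 5.47, 3.52 and 4.79 CPM in WT against 2.87, 2.25 and 2.17 CPM in htb1-K119R, a 1.88-fold fall without overlap (log2 -0.91 ± 0.24 SE, adjusted p = 0.0124, and 0.0587 without K119R replicate 3). The ligase gene lig4+ was not called at a log2 fold change of 0.44 ± 0.20 SE, although its groups did not overlap, and xlf1+, the XLF homolog, was at -0.01 ± 0.23 SE.

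Of 10 genes listed under base excision repair 1 was called (37.9% of all genes were). Their median log2 fold change was -0.21, with 7 below 0 and a range from -0.64 to 0.50. The libraries of the genotypes did not overlap for 5 of them (48.8% of all genes), atl1+, ung1+, mag2+, thp1+ and hnt3+, each with the mutant below WT. The called gene was atl1+, and no other gene of the list passed. It encodes an alkyltransferase-like protein, which flags alkylated guanine and does not itself remove a base. atl1+ had 6.38, 8.11 and 6.4 CPM in WT against 4.37, 5.6 and 3.41 CPM in htb1-K119R (log2 -0.64 ± 0.22 SE, adjusted p = 0.0392). The call was lost without WT replicate 2, K119R replicate 1 or K119R replicate 3 (adjusted p = 0.146, 0.116 and 0.156). The abasic endonuclease gene apn2+ was at 0.50 ± 0.22 SE (adjusted p = 0.094) and the glycosylase gene nth1+ at -0.37 ± 0.21 SE (adjusted p = 0.188).

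Of the 6 mismatch repair genes 5 had log2 fold changes above 0, with a median of 0.40, and 1 passed the test (37.9% of all genes did). It was msh6+, a MutS homolog, with 8.05, 8.9 and 11.5 CPM in WT against 13.2, 13.7 and 14.9 CPM in htb1-K119R (1.45-fold, log2 0.54 ± 0.16 SE, adjusted p = 0.0236). The groups did not overlap, yet the call was kept in 1 of 6 fits with a library left out, that without WT replicate 3. msh6+ also shares 1660 of its 4255 bases with trs130+ on the opposite strand, which rose from 5.57 to 11.5 CPM (log2 1.04, adjusted p = 0.000582). msh1+ and pms1+ were at 0.39 and 0.17 and were not called. msh3+, a MutS homolog that acts on larger loops, was at -0.47 ± 0.17 SE with adjusted p = 0.0525, and its groups did not overlap. With offsets for GC content and exon length the list median was 0.195, msh6+ was at 0.16 (adjusted p = 0.364) and pms1+ at -0.11. Under those offsets 1 gene of the list rose and 1 fell.

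Among the 5 genes of translesion synthesis and damage tolerance eso1+ stood highest. It encodes DNA polymerase eta fused to the cohesin acetyltransferase Eco1, and had 3.04, 3.16 and 2.52 CPM in WT against 8.46, 7.58 and 7.54 CPM in htb1-K119R (2.73-fold, log2 1.45 ± 0.19 SE, adjusted p = 0.000209). The other polymerase genes rev1+, rev3+ and rev7+ were not called, at 0.14, -0.11 and -0.41. rhp18+, the Rad18 ubiquitin ligase for PCNA, had 33.9, 34.5 and 31.1 CPM in WT against 21.6, 23.2 and 24.6 CPM in the mutant, a 1.43-fold fall without overlap (log2 -0.52 ± 0.11 SE, adjusted p = 0.00444). It shares 1878 of its 2038 bases with the opposite-strand gene trs8502+, which also fell (log2 -0.31, adjusted p = 0.037). pso2+, the crosslink nuclease, was not called (log2 -0.26 ± 0.23 SE).

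The checkpoint kinases rose by modest amounts. tel1+, the ATM kinase, had 3.42, 3.88 and 3.59 CPM in WT against 5.88, 6.86 and 5.01 CPM in htb1-K119R (1.63-fold, adjusted p = 0.017), and rad3+, the ATR kinase, had 12.8, 14.6 and 14.2 CPM in WT against 20.7, 21 and 18.1 CPM in the mutant (1.44-fold, adjusted p = 0.00905). The groups overlapped for neither. The call of tel1+ was lost without K119R replicate 1 (adjusted p = 0.059) and without K119R replicate 2 (adjusted p = 0.0739). Both are among the longest genes of the set, at 8969 and 9446 bases of exon. With offsets for GC content and exon length, tel1+ was at 0.17 (adjusted p = 0.443) and rad3+ changed sign to -0.11 (adjusted p = 0.424). The clamp genes rad1+ and rad9+, the loader rad17+ and the fork-protection gene swi1+ were not called, at -0.36, 0.10, 0.55 and 0.18.

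Of 6 genes of replicative polymerases, ligase and clamp loaders 2 rose (18.6% of all genes did). rfc1+, the large subunit of replication factor C, had a fold of 1.37 (log2 0.45 ± 0.12 SE, adjusted p = 0.0141), and elg1+, the large subunit of an alternative loader, a fold of 1.51 (log2 0.59 ± 0.21 SE, adjusted p = 0.0437). The call of rfc1+ was lost in 3 of 6 fits with a library left out and that of elg1+ in 5, and neither passed with the GC and length offsets (log2 0.18 and 0.37). The ligase gene cdc17+ was at 0.60 ± 0.24 SE and was not called (adjusted p = 0.0709), and mcl1+, a replisome linker, was at -0.23 ± 0.16 SE.

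Of 17 chromatin genes annotated to repair 4 rose and 2 fell (18.6% and 19.3% of all genes did). All 4 rises were of NuA4 subunits. NuA4 acetylates histone H4 and H2A tails. NuA4 and INO80 were not planned lists but were grouped within the chromatin list, so their counts are descriptions only. Of the 8 NuA4 subunit genes counted here 4 rose (18.6% of all genes did). alp13+, which is known from NuA4 too but was not in this count, fell. Of the NuA4 genes outside the set, bdf2+ fell (log2 -0.33, adjusted p = 0.0201, kept in 3 of 6 fits with a library left out). mst1+, also outside it, was not called (log2 -0.04, adjusted p = 0.904). Of 6 genes for accessory subunits of INO80 none was called (37.9% of all genes were). That count leaves out alp5+, a subunit of INO80 as well, which was counted under NuA4. The gene of the INO80 ATPase, ino80+, which is outside the set, rose (log2 0.64, adjusted p = 0.0212). alp5+, the actin-related protein Arp4 of NuA4, Swr1 and INO80, had 21, 17.1 and 22.1 CPM in WT against 39.9, 44.9 and 37 CPM in htb1-K119R (2.02-fold, log2 1.01 ± 0.13 SE, adjusted p = 0.000234). The scaffold gene vid21+ had 1.67, 2.3 and 2.19 CPM in WT against 4.75, 3.57 and 3.82 CPM in the mutant (1.96-fold, adjusted p = 0.00863, and 0.0555 without K119R replicate 1). tra2+, the PI3K-like subunit, had 4.71, 6.6 and 5.74 CPM in WT against 10.5, 12.1 and 10.5 CPM in the mutant (1.94-fold, adjusted p = 0.0017), and eaf7+ had 0.835, 1.22 and 1.82 CPM in WT against 2.02, 2.8 and 2.79 CPM in the mutant (1.88-fold, adjusted p = 0.0446). None of the 4 had overlapping groups.

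The 4 rises were not equally firm. tra2+, at 11382 bases of exon, was at 0.18 with the GC and length offsets (adjusted p = 0.366), while alp5+ was at 0.95, vid21+ at 0.63 and eaf7+ at 1.03. The call of eaf7+ was kept only in the fit without WT replicate 3 of the 6 fits with a library left out, and was lost with library totals (adjusted p = 0.0984). vid21+ lies over 3763 of its 3938 bases opposite SPCC1795.07, a mitochondrial ribosomal protein gene with 49.1 CPM in WT and 43.5 CPM in the mutant, so that reads of the neighbor counted without regard to strand could not be told apart from its own. yaf9+, epl1+, swc4+ and eaf6+ of NuA4 were at 0.17, 0.12, 0.04 and -0.11, and the INO80 genes nht1+, iec1+, ies2+, iec3+, ies4+ and iec5+ ran from 0.44 down to -0.28. alp13+, a chromodomain subunit of the Clr6 deacetylase complex as well, fell by 1.35-fold (adjusted p = 0.0159, and 0.0669 and 0.0508 without K119R replicates 1 and 2). A difference between the complexes was not tested.

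**Figure D3:**
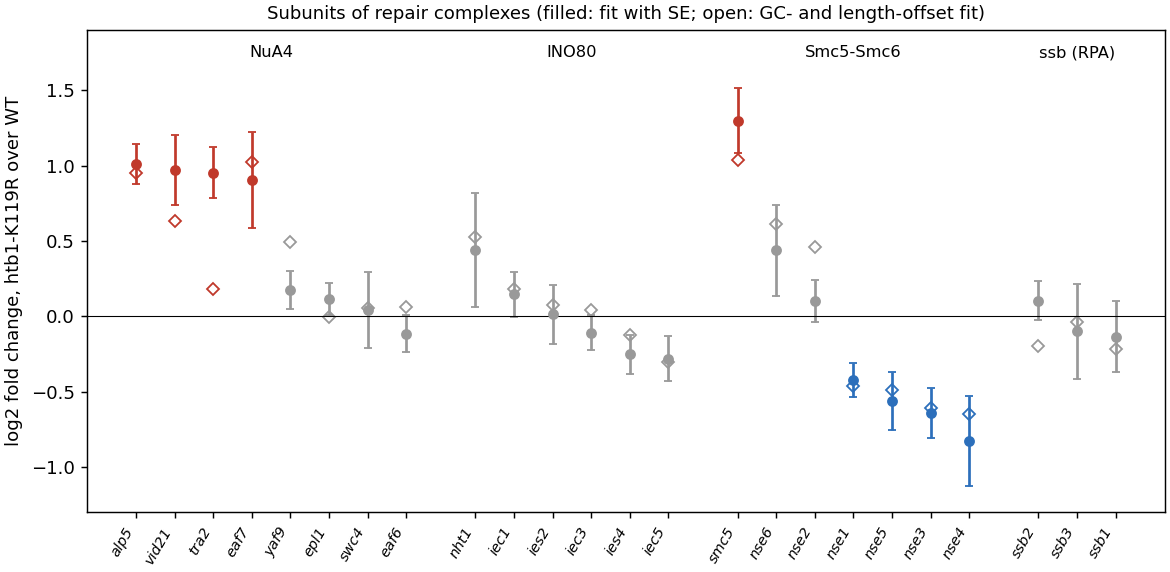
Log2 fold change (htb1-K119R over WT) of the subunits of 4 repair complexes, with filled points and bars for the estimate ± SE and open diamonds for the estimate with GC-content and exon-length offsets. Red and blue passed the test and gray did not. smc5 at 1.30 stands opposite nse1, nse3, nse4 and nse5, and tra2 drops from 0.95 to 0.18 with the offsets.

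The 2 falls of the chromatin list were those of hta2+ and hat1+. hta2+, a gene for H2A that partners H2B, had 1270, 1161 and 844 CPM in WT against 653, 714 and 632 CPM in htb1-K119R, a 1.64-fold fall (log2 -0.71 ± 0.17 SE, adjusted p = 0.00908, and 0.058 without K119R replicate 3). hta1+, the other H2A gene of the set, had 661, 596 and 420 CPM in WT against 400, 452 and 404 CPM in the mutant, overlapped and was not called (log2 -0.42 ± 0.17 SE, adjusted p = 0.0757). WT replicate 3 was the lowest WT library for both. hat1+, an acetyltransferase of newly made histone H4, had 3.64, 3.95 and 5.7 CPM in WT against 2.54, 1.76 and 2.58 CPM in the mutant (1.95-fold lower, adjusted p = 0.0137). It was not called with the GC and length offsets (log2 -0.73, adjusted p = 0.0633). The H2A-H2B chaperone gene spt16+ was listed at 9, 0 and 0 counts in WT against 41, 0 and 0 in the mutant and was not tested, and its FACT partner pob3+ was at 0.02 ± 0.19 SE.

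rfp1+, a SUMO-targeted ubiquitin ligase subunit, had 13, 16.5 and 14.4 CPM in WT against 22.3, 23.7 and 23.1 CPM in htb1-K119R (1.58-fold, log2 0.66 ± 0.13 SE, adjusted p = 0.00274). All of its 1941 bases lie opposite SPAC19A8.11c, which was not called (log2 -0.38, adjusted p = 0.0518). Its paralog rfp2+ was at -0.09 ± 0.15 SE and the SUMO-conjugating enzyme gene hus5+ at 0.28 ± 0.13 SE, and neither was called.

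The 29 tested genes outside these lists gave 5 rises and 8 falls (18.6% and 19.3% of all genes), with a median log2 fold change of -0.21. SPAC1F12.06c, described in the table as a predicted endoribonuclease for inosine-containing RNA, showed the deepest fall of all repair genes. It had 8.65, 11.8 and 12.1 CPM in WT against 3.48, 3.57 and 2.94 CPM in htb1-K119R (3.28-fold lower, log2 -1.71 ± 0.19 SE, adjusted p = 9.37e-05). The gene lies wholly opposite any2+, an arrestin-related gene with 85 CPM in WT and 110 CPM in the mutant that was not called (adjusted p = 0.0517). SPAC23H3.15c, a Ddr48 protein, had 272, 261 and 222 CPM in WT against 144, 128 and 131 CPM in the mutant (1.88-fold lower, log2 -0.91 ± 0.12 SE, adjusted p = 0.000205). SPCC1442.07c, a predicted ubiquitin and metalloprotease fusion, was 1.79-fold lower (adjusted p = 0.0209, and 0.083 and 0.0737 without K119R replicates 1 and 2). It shares 921 of its 1080 bases with pre8+, a proteasome gene on the opposite strand with 89.1 CPM in WT and 95.6 CPM in the mutant that was not called (log2 0.10, adjusted p = 0.481).

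adl1+, a DNA ligase gene, had 4.33, 4.38 and 4.91 CPM in WT against 9.45, 8.57 and 9.86 CPM in htb1-K119R (2.04-fold, log2 1.02 ± 0.16 SE, adjusted p = 0.00081). It shares 3692 of its 4816 bases with SPBC713.07c, a polyphosphatase gene on the opposite strand that fell from 6.18 to 2.23 CPM (log2 -1.48, adjusted p = 0.00238). With the GC and length offsets adl1+ was at 0.61 (adjusted p = 0.00681). hhp2+, a casein kinase 1, had 45.3, 48.2 and 54.4 CPM in WT against 85.2, 78.2 and 84.1 CPM in the mutant (1.67-fold, log2 0.74 ± 0.11 SE, adjusted p = 0.000391). The groups of adl1+ and hhp2+ did not overlap. The paralog of hhp2+, hhp1+, was at 133 CPM in WT and 159 CPM in the mutant, and was not called (log2 0.26 ± 0.11 SE, adjusted p = 0.0854).

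The set holds 6 genes of the XP-G nuclease family, which share a catalytic fold that cuts flaps and branched DNA, and this grouping was made after their values were seen. rad2+, exo1+ and rad13+ rose past 2-fold, ast1+ rose by 1.58-fold (log2 0.66 ± 0.18 SE, adjusted p = 0.0177), ath2+ fell, and SPAC12G12.16c was not called (log2 -0.26 ± 0.29 SE, adjusted p = 0.509). The call of ast1+ was lost in 4 of 6 fits with a library left out (adjusted p from 0.052 to 0.0629). ath2+ had 8.5, 12 and 19 CPM in WT against 9.17, 6.42 and 7.54 CPM in htb1-K119R. Its groups overlapped, and its 1.73-fold fall (adjusted p = 0.037) was called in only 1 of the 6 fits, that without WT replicate 1. In WT the 6 genes were all weakly expressed, between 0.77 and 4.66 FPKM, a measure per length of exon that permits comparison between genes.

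Exon length moved with the direction of change. The 28 repair genes that rose had a median exon length of 2922 bases, the 22 that fell 1348 bases and the 84 not called 1736 bases. Over all genes the medians were 2259 bases for rises and 1304 bases for falls. Spearman's rho between length and log2 fold change was 0.47 across 134 repair genes and 0.35 across 4911 genes with a length, given as a description since all genes come from the same 6 libraries. With offsets for GC content and exon length it was 0.09 over the repair genes, of which 24 rose and 19 fell (19.5% of all genes in each direction). Calls of rad3+, tel1+, tra2+, msh6+, mus7+, rfc1+, elg1+, rad16+ and rad54+ were lost among the rises, whereas rhp42+, rad2+ and exo1+ stayed at 2.12, 2.22 and 1.69. Among the falls those of tfb5+, atl1+, get1+, mgm101+, mhf2+, slx4+, nse4+ and hat1+ were lost.

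**Figure D4:**
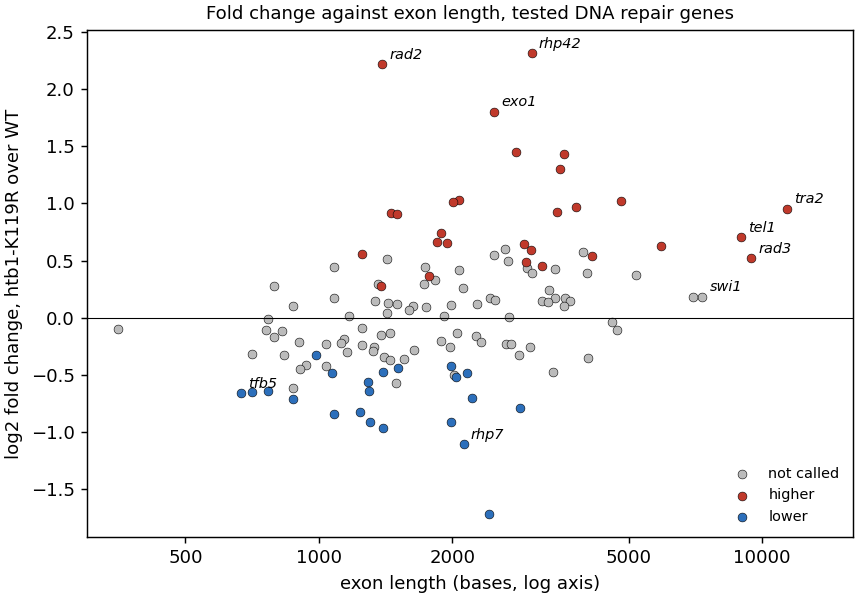
Log2 fold change (htb1-K119R over WT, vertical axis) against exon length in bases (horizontal log axis) of the 134 tested repair genes, colored by call. The 3 longest of the genes that rose, tra2, rad3 and tel1, lie between 0.52 and 0.95, while rad2 and rhp42 lie above 2 at lengths of 1387 and 3019 bases.

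Opposite-strand neighbors were common in this compact genome. Of the 136 repair genes 69 overlap a coding gene on the other strand, 28 of the 50 called genes among them, and whether the counting used strand is not given in the sources used here. Values of several neighbors are given above beside the genes they overlap. Of the others, SPAC23H4.13c, which covers 549 of the 1556 bases of alp13+, and SPBC16C6.01c, which covers 606 of the 1534 bases of get1+, were not called (log2 -0.15 and 0.05). rad3+ shares 6260 of its 9446 bases with swi1+, which had 1.25 CPM in WT against 1.41 CPM in htb1-K119R, and exo1+ shares 633 of its 2484 bases with ely5+, which was not called (log2 0.12). Some neighbors with short overlaps were called. rad2+ shares 92 of its 1837 bases with SPAC3G6.05, which fell (log2 -0.83, adjusted p = 0.000274). eso1+ shares 199 of its 2790 bases with SPBC16A3.12c, which also fell (log2 -0.73, adjusted p = 0.00848). elg1+ shares 31 of its 3098 bases with dsc1+, which rose (log2 0.65, adjusted p = 0.000373). The part of the neighbors in these results was not tested.

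Genes of the same pathway lists that fell outside the set changed in both directions as well. Of 82 tested 18 rose and 11 fell (18.6% and 19.3% of all genes did), and the median log2 fold change was 0.12. Past 2-fold were rises of brl2+ and brl1+, the ubiquitin ligase subunits for H2B itself, at 2.38 and 1.18, of rad8+, a PCNA ubiquitin ligase, at 1.99, of rrp2+, a translocase with a SUMO-targeted ubiquitin ligase domain, at 1.68, of fub2+, a proteasome regulator, at 1.28, of the H3K36 methyltransferase gene set2+ at 1.23 and of the RecQ helicase gene hrq1+ at 1.18. The TFIIH gene tfb1+ fell, at -1.05. Of the 23 repair genes with the duplex-unwinding term, 9 rose and 1 fell (18.6% and 19.3% of all genes did), with a median log2 fold change of 0.46. With the GC and length offsets 5 rose and 1 fell (19.5% of all genes in each direction), and the median was 0.17. Some of these genes are in both counts.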

How the data were processed

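Polyadenylated RNA from 3 WT and 3 htb1-K119R cultures was sequenced. Per the study's methods the authors filtered reads, discarded those of rRNA and used HISAT2 for mapping to Ensembl release 45, and the processing notes also name fastp, Bowtie2, StringTie, RSEM and DESeq2. The authors deposited raw read counts per gene and FPKM values from StringTie. The counter and its use of strand are not given in the sources used here. Columns of the authors' own fold changes, p-values and FDR, group means, and 12 per-sample columns of a filtered copy of the table were not used.

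Counts were tested with edgeR 4.0.16 in R 4.3.3 (TMM, filterByExpr, quasi-likelihood test, Benjamini-Hochberg over 4969 genes), which gave adjusted p-values and log2 fold changes, on the genotype alone. CPM are counts relative to the TMM-scaled library total, and FPKM served only to compare levels between genes. DESeq2 1.42.0, other scalings and filters, a replicate block, offsets fitted by lowess (span 0.3) to GC content and exon length, and fits with each library left out were the 14 alternatives. Positions, exon lengths and promoter windows of 250 bases came from RefSeq ASM294v3, matched for 5107 of 5184 IDs (98.5%). The deposited table holds no coordinates, so the authors' gene models may differ. No repair gene had another gene at 95% identity over 50% of its length (BLAST 2.17.0). The model code was tested on simulated data.

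The set, its pathway lists and tests were chosen with earlier results of these data known. Named were genes past 2-fold, the 2 highest and 2 lowest of each pathway, the 10 highest and lowest of the set, the members of the recombination, Smc5-Smc6, end-joining, mismatch and checkpoint lists, and groups of 5 or fewer. Partners and paralogs named beside them (such as rhp41+, rad16+, swi10+, rhp23+, TFIIH genes, rev3+, hta1+, hhp1+, pob3+, alp13+, bdf2+, mst1+, ino80+, smc6+, pku70+, pku80+, mag2+, thp1+, ung1+, hnt3+ and the XP-G family), and mus7+, get1+ and mgm101+, were chosen after their values were seen. A few withheld genes are not reported here. P-values weigh the group difference against the spread between these libraries, with a variance estimate that is partly shared across genes. Depth limits apply to counting error only.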

Additional observations from a re-analysis of the deposited data

How the results depend on the processing

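With library totals 19 repair genes were higher (13 past 2-fold) and 5 lower (1 past 2-fold) and the median log2 fold change of the set was 0.21. Leaving out 1 library gave 15 to 34 genes higher, 11 to 27 lower, 8 to 12 higher past 2-fold, 2 to 5 lower past 2-fold and medians from -0.001 to 0.071. With offsets for GC content and exon length mhf2+ turned to 0.07 and rad3+ to -0.11, and with the replicate block added to them to 0.075 and -0.12; the cause was not tested. No other called gene changed direction in any of the 14 alternatives. Of the 50 calls 46 were kept with DESeq2, 48 with RLE factors, 48 without the filter on low counts, 50 with at least 10 counts in every library, 22 with library totals and 33 with the offsets.

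Same-numbered WT and htb1-K119R libraries had deviations correlated at -0.264, 0.421 and 0.287, and WT replicates 1 and 3 correlated best with K119R replicates 2 and 1. The deviations were taken within each genotype, so these correlations depend on each other. They cannot decide whether replicate numbers pair the samples. The replicate block gave 28 genes higher and 22 lower, 9 and 2 past 2-fold, and a median of 0.08, and kept 48 of the 50 calls. With the offsets as well it gave 22 higher and 21 lower. The shares of all genes called with the block were not computed, so these counts cannot be set against the whole table.

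Genes of a few CPM rest on low counts (eaf7+, 11 to 54 per library), and the size of difference that these counts can show was not measured.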

Other observations

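The leu1 transcript, whose allele differs between the strains, had 20886, 20752 and 23232 counts in WT against 18168, 19226 and 18912 in htb1-K119R and was not called (log2 -0.48, adjusted p = 0.0812, edgeR's quasi-likelihood test). The ade6 transcript was at -0.01 (adjusted p = 0.97). rps3+, a ribosomal protein gene that carries the DNA repair term, had 4236, 3857 and 2392 CPM in WT against 2080, 2510 and 2278 CPM in htb1-K119R. WT replicate 3 lay within the mutant range, the groups overlapped and the gene was not called (log2 -0.61, adjusted p = 0.0594). It was called lower with DESeq2 (adjusted p = 0.00942) and with library totals (adjusted p = 0.00827), and was at 0.01 with offsets for GC content and exon length (adjusted p = 0.911).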
